A study of Mus musculus with 24 samples.

Results

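The genes described here are 10 secreted modulators of Wnt signalling: Sfrp1, Sfrp2, Sfrp4, Sfrp5 and Frzb of the secreted frizzled-related family, Dkk1, Dkk2 and Dkk3 of the Dickkopf family, Wif1 and Sost. They were chosen by symbol, and all 10 were found among the 55471 genes of the expression tables. The high level of Sfrp2 in irradiated bone was known when the genes were chosen, so the members' values in irradiated against untreated bone are given as a description, with no test. Their values in skin, between the beams and between the untreated tissues were not used by the rule, and were tested.

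The libraries came from skin and bone of female mice aged 10 weeks, in a study of proton radiotherapy (PRT) in a mouse sarcoma model. Each tissue had 3 groups of 4 biological replicates: F-PRT (FLASH, at ultra-high dose rate), S-PRT (standard dose rate) and Untreated. The labels name no strain, genotype, dose, time after irradiation or skeletal site, and do not say whether a skin and a bone library came from 1 animal. The p-values therefore measure the spread between these samples. Levels are in counts per 1000000 scaled by the trimmed mean of M-values (CPM), which serve to compare a gene between libraries, or in transcripts per 1000000 (TPM), which are per transcript length and serve to compare genes with each other.

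Wnt proteins bind Frizzled receptors together with the co-receptors Lrp5 and Lrp6, and this stabilises beta-catenin, which drives transcription with TCF/LEF factors. Secreted frizzled-related proteins and Wif1 bind Wnt proteins outside the cell, whereas Dkk1 and sclerostin, the product of Sost, bind the co-receptors. Dkk2 can block or promote signalling depending on the co-factors present, and Dkk3 is a divergent member of its family with no settled role in the pathway. In bone, sclerostin is made mainly by osteocytes and restrains bone formation. In skin, Wnt signalling controls the hair follicle and the dermal fibroblast lineage. In GRCm38 the protein-coding genes of the members lie apart: Sfrp1 at chr8:23411502-23449632, Sfrp2 at chr3:83766321-83774316, Sfrp4 at chr13:19623104-19632994, Sfrp5 at chr19:42197971-42202252 and Frzb at chr2:80411970-80447625. Dkk1 lies at chr19:30545863-30549665, Dkk2 at chr3:132085292-132180304, Dkk3 at chr7:112116017-112159057, Wif1 at chr10:121033960-121100650 and Sost at chr11:101962458-101967015. Of these, Sfrp2 overlaps an annotated gene, the antisense Gm26771, and the others overlap none.

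Total expected counts per library ranged from 16.4 M to 22.1 M in skin and from 10.9 M to 17.4 M in bone (M, 1000000 counts). Markers matched the tissue labels: keratinocyte genes summed to 14400 to 36700 CPM in skin and to at most 197 CPM in bone, and the bone-cell genes Ibsp and Mepe had 0 counts in all skin groups. All 13 osteoblast genes were lower in untreated skin than in untreated bone. Of 10 osteocyte genes, 6 were lower and 3 were higher in untreated skin. All 7 genes of a p53 target list rose in skin under each beam, and 5 of 7 rose in bone. Some libraries stood apart from their groups. In skin, S-PRT 4 had 8.20 CPM of 10 endothelial genes against 202 to 222 CPM in the other S-PRT skin libraries, and 898 CPM of 13 fibroblast and matrix genes against 3110 to 4200 CPM. Skin Untreated 1 had 31700 CPM of 11 keratinocyte genes against 14400 to 17900 CPM in the other untreated libraries, and skin S-PRT 1 had 1150 CPM of 11 hair follicle genes against 66.4 to 276 CPM in the other S-PRT libraries. In bone, Untreated 1 had 3610 CPM of 10 neutrophil genes against 11600 to 17300 CPM in the other untreated libraries, and F-PRT 3 had 421 CPM of 11 cartilage genes against 1460 to 2090 CPM in the other F-PRT libraries. Keratinocyte genes in bone were highest in F-PRT 2, at 197 CPM, against 9.45 to 11.5 CPM in untreated bone. Values without these libraries are given where a result rests on them.

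Before treatment, the tissues held different sets of modulators. Sost and Dkk1 were bone genes, Wif1, Frzb and Sfrp4 were higher in bone, and Sfrp1, Dkk2 and Dkk3 were higher in skin. Of the 10 members, 3 were higher in skin and 5 were higher in bone by edgeR's quasi-likelihood test at an adjusted p under 0.05. Among all 20754 genes tested, 65.2% differed, with 32.6% in each direction, so a difference between these tissues was common.

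**Figure D1:**
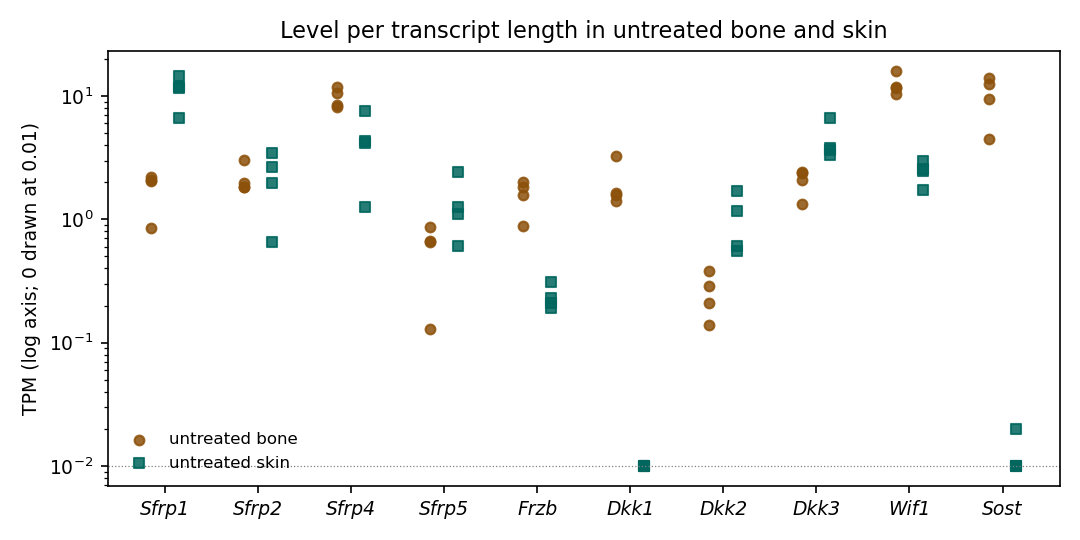
Level of each member per transcript length (TPM, log axis) in the 4 untreated bone libraries (circles) and the 4 untreated skin libraries (squares), with values of 0 drawn at 0.01. Dkk1 and Sost lie between 1.42 and 14.1 TPM in bone and at or next to 0 in skin, whereas Sfrp2 spans overlapping ranges.

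Sost had 1715 counts over the 4 untreated bone libraries and 1 count over the 4 untreated skin libraries. The ratio of pooled levels was 2190, with an exact 95% interval of 393 to 86600 that covers counting error only. Dkk1 had 391 counts in untreated bone and 0 in untreated skin, where 0 counts allow a pooled level of up to 0.0412 CPM (3 counts over the group). Its level was thus at least 166-fold higher in bone. Over all 12 skin libraries, irradiated ones included, Dkk1 had 1 count and Sost had 5, so neither could be tested in skin.

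Wif1, which binds Wnt proteins directly, was 46.3, 41.8, 47.3 and 37.7 CPM in untreated bone and 8.42, 9.21, 8.59 and 7.60 CPM in untreated skin. These values, scaled within each tissue, did not overlap. In the joint fit the log2 difference of skin against bone was -2.25 (SE 0.17, edgeR adjusted p = 8.78e-11). Frzb, also known as Sfrp3, was lower in skin by a log2 difference of -2.52 (adjusted p = 1.68e-06). Sfrp1 was the most skin-weighted member, at 82.8, 84.5, 82.9 and 57.6 CPM in skin against 7.92, 15.1, 13.4 and 13.7 CPM in bone. Its log2 difference was 2.71 (SE 0.19, adjusted p = 2.26e-11). Dkk3 was higher in skin by 1.11 (adjusted p = 6.15e-06) and Dkk2 by 2.01 (adjusted p = 0.0023) on the log2 scale. Sfrp4 was lower in skin by a log2 difference of -1.19 (adjusted p = 0.0298), a call lost without bone Untreated 1 (adjusted p = 0.087) or without skin Untreated 3 (adjusted p = 0.0944). Sfrp5 differed by 1.21 (95% interval 0.02 to 2.41, adjusted p = 0.0687) and passed under DESeq2 (adjusted p = 0.0462) and with some libraries left out. The difference for Sfrp2 was 0.11, with a 95% interval of -0.86 to 1.08.

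Per transcript length, untreated bone was led by Wif1 at 12.5 ± 2.52 TPM (SD, n = 4), Sost at 10.2 ± 4.23 TPM and Sfrp4 at 9.77 ± 1.82 TPM. The ranges of neighbours in this order overlapped. Sfrp2, Dkk3, Dkk1, Sfrp1 and Frzb followed between 1.57 and 2.17 TPM, again with overlapping neighbours, and Sfrp5 and Dkk2 were lowest, at 0.58 and 0.26 TPM. Untreated skin was led by Sfrp1 at 11.2 ± 3.34 TPM, followed by Dkk3 at 4.38 and Sfrp4 at 4.32 TPM. Wif1, Sfrp2, Sfrp5 and Dkk2 followed between 1.00 and 2.43 TPM with overlapping neighbours, and Frzb stood below them at 0.235 TPM.

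The 250 bases before the transcription start were available from RefSeq (GRCm38.p6) for 7 of the 10 members, and not for Sfrp1, Sfrp4 and Dkk3. They are shown for Sfrp2, measured in both tissues and highest in irradiated bone, for Wif1, measured in both tissues and the member called in irradiated skin, and for Sost, restricted to bone. Capitals mark CG dinucleotides, and each sequence runs 5′ to 3′ on the gene's own strand and ends at the base before the annotated start. The windows are chr3:83766071-83766320 (plus strand) for Sfrp2, chr10:121033754-121033959 (plus strand, cut to 206 bases that lie before every annotated start) for Wif1 and chr11:101967016-101967265 (minus strand) for Sost.
Sfrp2: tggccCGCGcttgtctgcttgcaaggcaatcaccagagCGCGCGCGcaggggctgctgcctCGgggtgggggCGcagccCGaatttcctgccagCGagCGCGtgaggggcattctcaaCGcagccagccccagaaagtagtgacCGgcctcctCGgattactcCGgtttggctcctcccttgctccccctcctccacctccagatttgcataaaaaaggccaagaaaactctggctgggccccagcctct
Wif1: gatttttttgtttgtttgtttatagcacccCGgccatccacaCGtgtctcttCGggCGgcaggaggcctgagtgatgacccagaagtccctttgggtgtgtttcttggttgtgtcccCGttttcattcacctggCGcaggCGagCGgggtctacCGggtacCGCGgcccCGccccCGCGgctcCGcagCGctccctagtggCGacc
Sost: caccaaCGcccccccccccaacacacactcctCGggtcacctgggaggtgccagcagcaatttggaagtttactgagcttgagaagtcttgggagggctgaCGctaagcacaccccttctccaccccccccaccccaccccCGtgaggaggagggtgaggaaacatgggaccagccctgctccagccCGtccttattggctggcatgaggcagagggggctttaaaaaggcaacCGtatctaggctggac
The Sfrp2 window held 16 CG dinucleotides and the Sost window 6, against a median of 6 over 27025 promoter windows of 250 bases. The full 250-base window of Wif1 held 21, more than 83.9% of promoters. Dkk1, the other member at or near 0 counts in skin, held 6, and Frzb, Sfrp5 and Dkk2 held 16, 13 and 7.

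On both strands, none of the 7 windows held CTTTGAT, a core of TCF/LEF binding sites that 3.23% of all windows held. TGTGGT, a core of RUNX sites held by 14.2% of windows, occurred in Sfrp5 and Dkk1. TATAAA, the letters of the TATA box, held by 13.0% of windows on either strand and at any place, occurred in Dkk1, Dkk2 and Wif1. In the Wif1 sequence shown, the match is on the opposite strand (TTTATA) and near the 5′ end, away from the start. These are matches of letters in short windows.

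In irradiated bone, Sfrp2, Sfrp1, Sfrp5, Frzb and Dkk3 were higher than in untreated bone under each beam, with no overlap between the groups. The fitted difference was positive for all 10 members under each beam, and smallest for Sfrp4 and, under S-PRT, for Dkk2. Both comparisons share the 4 untreated libraries. Of all 18848 genes tested in bone, 15.5% passed the threshold as higher under F-PRT and 13.3% under S-PRT (32.7% and 28.5% in either direction). The median log2 difference of the 10 members was 0.75 under F-PRT and 0.78 under S-PRT, against -0.0084 and -0.0058 for all genes tested. Because the members were chosen on this contrast, no count of members passing the threshold is given. For the same reason, nothing is read from these medians or from the counts without overlap. The same 5 members had all 4 irradiated libraries above all 4 untreated ones under each beam, joined by Wif1 under S-PRT; 15% of genes did so under F-PRT and 12.1% under S-PRT.

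**Figure D2:**
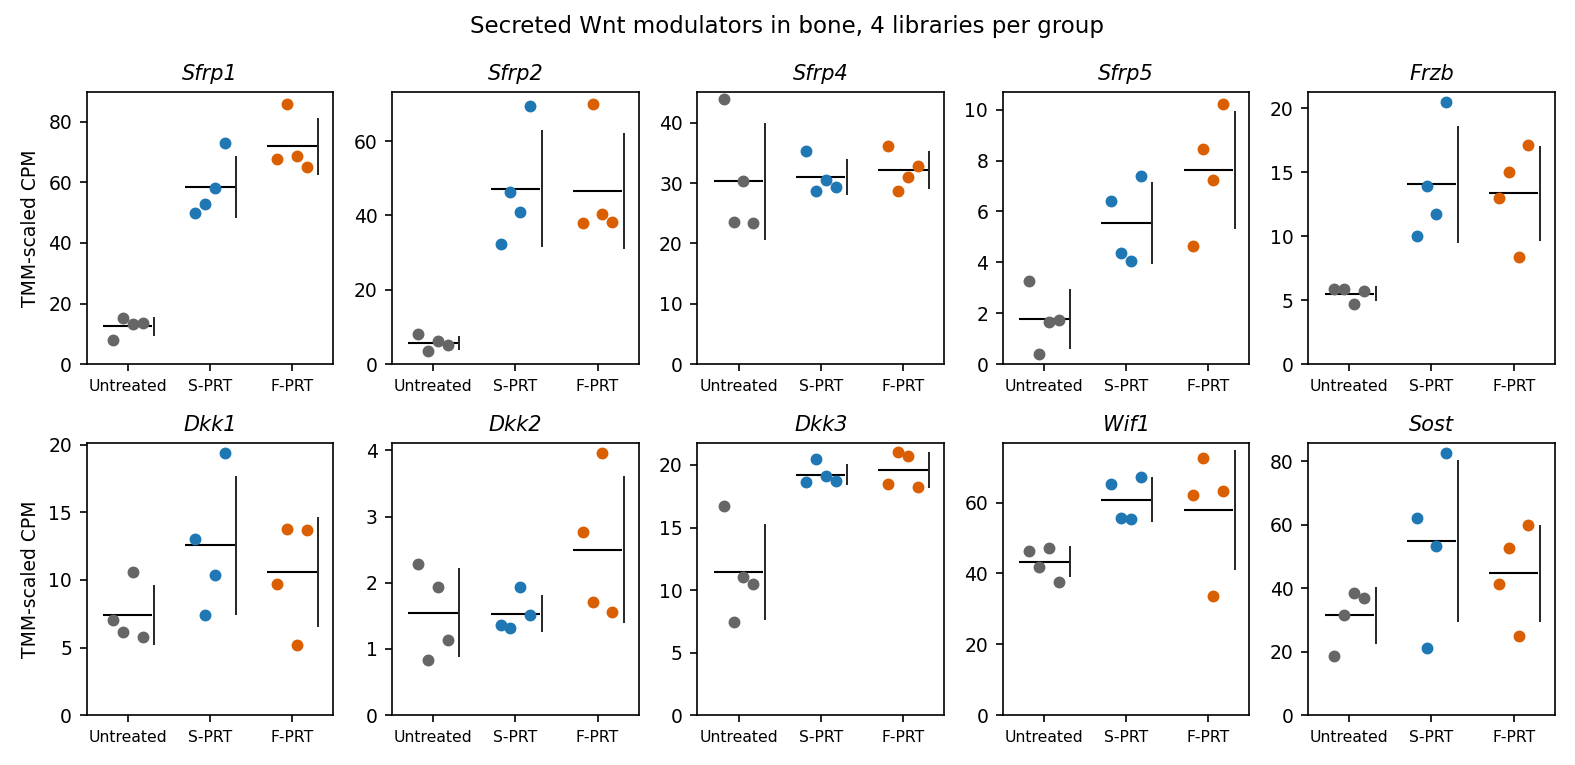
Level of each member in bone (TMM-scaled CPM), with 1 point per library, a horizontal line at the mean of each group of 4 and a vertical line for ±1 SD. Sfrp1 and Sfrp2 lie at 7.92 to 15.1 and 3.58 to 8.03 CPM in untreated bone and above 32 CPM in every irradiated library, whereas Sfrp4 overlaps in all groups.

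Sfrp2, a Wnt-binding protein of mesenchymal cells, was 8.03, 3.58, 6.27 and 5.23 CPM in untreated bone. It was 37.9, 69.9, 40.4 and 38.3 CPM after F-PRT and 32.4, 46.3, 40.8 and 69.3 CPM after S-PRT. The lowest irradiated library thus lay above the highest untreated one, and 1 library per beam, F-PRT 2 and S-PRT 4, stood above its group. The fitted fold was 8.17 under F-PRT (log2 3.03, SE 0.30) and 8.27 under S-PRT (log2 3.05, SE 0.30). Without F-PRT 2 the log2 difference under F-PRT was 2.77, and without S-PRT 4 that under S-PRT was 2.80. The overlapping antisense gene Gm26771 had 0 to 16 counts per library, and reads of the pair cannot be told apart without strand information, which is not given in the sources used here.

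Sfrp1, which acts on Wnt ligands in the same way, was 67.8, 85.9, 68.6 and 65.1 CPM after F-PRT and 49.9, 52.8, 58.1 and 73.0 CPM after S-PRT, against 7.92 to 15.1 CPM in untreated bone. Its fitted fold was 5.69 under F-PRT (log2 2.51, SE 0.18) and 4.63 under S-PRT (log2 2.21, SE 0.18). Sfrp5, a low-abundance family member, was 4.65, 8.44, 7.24 and 10.2 CPM after F-PRT and 6.39, 4.35, 4.04 and 7.40 CPM after S-PRT. In untreated bone it was 3.25, 0.381, 1.67 and 1.74 CPM, so the lowest irradiated library stood just above the highest untreated one. The log2 difference was 2.16 (SE 0.42) and 1.70 (SE 0.42).

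Frzb was 13.0, 15.0, 8.40 and 17.1 CPM after F-PRT and 10.0, 13.9, 11.8 and 20.5 CPM after S-PRT, against 5.86, 5.87, 4.67 and 5.70 CPM in untreated bone. The untreated libraries lay close together and all below the irradiated ones, with a log2 difference of 1.28 (SE 0.24) under F-PRT and 1.35 (SE 0.24) under S-PRT. Sfrp4, which is linked in people to cortical bone thickness, was the exception within its family. It was 43.9, 23.5, 30.3 and 23.5 CPM in untreated bone, 36.2, 28.7, 31.0 and 32.8 CPM after F-PRT and 35.3, 28.7, 30.6 and 29.3 CPM after S-PRT. The groups overlapped throughout. The log2 difference was 0.09 (SE 0.17) under F-PRT and 0.04 (SE 0.17) under S-PRT, with a sign that changed when single libraries were left out. Without bone Untreated 1, which was highest in Sfrp4, these differences were 0.34 and 0.30. In TPM the groups of Sfrp4 did not overlap, at 8.14 to 11.95 TPM in untreated bone, 14.43 to 20.23 TPM after F-PRT and 14.5 to 19.42 TPM after S-PRT, and TPM was higher in irradiated bone for most genes. The log2 ratio of mean TPM was 0.86 and 0.74 for Sfrp4, beside a median of 0.71 and 0.64 over all genes with a mean of at least 1 CPM.

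Among the Dickkopf genes, Dkk3 was 18.5, 21.0, 20.8 and 18.2 CPM after F-PRT and 18.6, 20.5, 19.1 and 18.7 CPM after S-PRT, a narrow band in both groups. Untreated bone gave 16.7, 7.47, 11.1 and 10.5 CPM, with Untreated 1 highest but still below every irradiated library. The log2 difference was 0.79 (SE 0.18) and 0.76 (SE 0.18), and 1.04 and 1.01 without Untreated 1. Dkk1, a co-receptor blocker, ranged from 5.17 to 13.7 CPM after F-PRT, 7.39 to 19.4 CPM after S-PRT and 5.76 to 10.6 CPM in untreated bone, with overlapping groups. Dkk2 stayed at or below 3.96 CPM in every bone library.

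Wif1 and Sost had the highest mean TPM of the members in untreated bone, with ranges that overlapped that of Sfrp4. Wif1 was 62.0, 72.7, 33.7 and 63.3 CPM after F-PRT and 65.2, 55.6, 55.3 and 67.3 CPM after S-PRT, against 37.7 to 47.3 CPM in untreated bone. F-PRT 3 was the only irradiated library below the untreated range. Sost was 41.3, 52.8, 25.0 and 60.0 CPM after F-PRT and 62.1, 21.1, 53.4 and 82.6 CPM after S-PRT, against 18.7, 31.6, 38.5 and 37.0 CPM in untreated bone, and the groups overlapped. The log2 difference of Wif1 was 0.42 and 0.49, and that of Sost 0.50 and 0.80, under F-PRT and S-PRT. F-PRT 3 was also the lowest F-PRT library for Dkk1 and Frzb, and it had the lowest sum of 13 osteoblast genes among irradiated bone libraries (22300 CPM against 35100 to 44100 CPM).

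Per transcript length, the order of the members in bone differed between groups. Sfrp2 ranked below Wif1, Sost and Sfrp4 in untreated bone, at 2.17 ± 0.58 TPM. After F-PRT it was 27.9 ± 7.32 TPM, beside Wif1 at 27.0 ± 7.48 and Sost at 23.1 ± 8.13 TPM, and after S-PRT it was 26.7 ± 10.9 TPM, beside Sost at 27.0 ± 13.1 and Wif1 at 26.8 ± 3.32 TPM (SD, n = 4 throughout). The ranges of these 3 genes overlapped in each irradiated group. The 5 frizzled-related genes held 37.7% of the members' summed TPM in untreated bone (range 34.5% to 44.5%), 54.9% after F-PRT (49.0% to 62.2%) and 50.3% after S-PRT (45.6% to 57.2%). Sfrp2 alone went from 5.06% to 20.8% and 20.2%. The share of the Dickkopf genes was 10.0%, 8.46% and 8.65%, with overlapping ranges.

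Markers of other cells moved with these differences. The 10 neutrophil genes summed to 3610 to 17300 CPM in untreated bone, 572 to 750 CPM after F-PRT and 421 to 1200 CPM after S-PRT, and all 10 fell under each beam. The 9 erythroid genes measured summed to 51200 to 76300, 17700 to 27100 and 18100 to 30100 CPM in the same order, and 7 of 9 fell under each beam. Of 12 marrow stroma genes, 10 rose under F-PRT and 8 rose and 1 fell under S-PRT, with sums of 1350 to 2450, 3490 to 4060 and 2750 to 3740 CPM. Of 13 osteoblast genes, 4 rose under F-PRT and 7 under S-PRT, with sums of 17000 to 29800, 22300 to 44100 and 36800 to 42000 CPM. Of 13 fibroblast and matrix genes, 6 rose and 1 fell under F-PRT and 5 rose and 1 fell under S-PRT. The median log2 difference was 0.84 and 0.67 for the stroma list, 0.41 and 0.56 for the osteoblast list and 0.56 and 0.42 for the fibroblast list, under F-PRT and S-PRT, beside 3.03 and 3.05 for Sfrp2 and 2.51 and 2.21 for Sfrp1. Other lists had larger medians: macrophage genes 1.31 and 1.13 (7 of 9 rose and 1 fell under each beam), adipocyte genes 1.11 and 1.03 (7 and 8 of 10 rose) and osteoclast genes 0.94 and 1.05 (8 of 9 rose under each beam). Chondrocyte genes had 0.81 and 1.27 (1 and 4 of 11 rose), below the stroma list under F-PRT and above it under S-PRT. The largest medians were those of keratinocyte genes, 5.52 under F-PRT (7 of 9 rose and 1 fell) and 2.5 under S-PRT (1 of 9 rose). Their sums were low, at 9.45 to 11.5 CPM in untreated bone, 7.41 to 197 CPM after F-PRT and 11.1 to 43.3 CPM after S-PRT. The highest of each irradiated group, F-PRT 2 and S-PRT 4, were also the libraries highest in Sfrp2. In the order untreated, F-PRT and S-PRT, the adipocyte sums were 753 to 1040, 1850 to 2270 and 1580 to 2100 CPM and the osteoclast sums 1770 to 2350, 1700 to 4060 and 2780 to 3740 CPM. The macrophage sums overlapped, at 1180 to 3330, 2450 to 2790 and 1560 to 2640 CPM, as did the chondrocyte sums, at 598 to 1720, 421 to 2090 and 1610 to 2100 CPM. The medians were 0.57 and 0.54 for endothelial genes (5 of 10 rose under each beam), 0.50 and 0.69 for osteocyte genes (2 and 4 of 10 rose; the list holds Sost) and 0.82 and 0.68 for skeletal muscle genes (0 of 11 passed). Of the lists in this paragraph, the keratinocyte list alone held a gene at 0 over a bone group (Krt15 in untreated bone). In bulk RNA, fewer cells of a type and less RNA per cell cannot be told apart, and the part of these markers in the members' values was not tested.

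Scaling by total counts alone moved the median log2 difference of all bone genes to 0.19 under F-PRT and 0.18 under S-PRT, and Sfrp2 was then at 3.22 and 3.25. Relative to that shift, its difference was close to the TMM value. The log2 ratio of mean TPM of Sfrp2 was 3.69 and 3.62, against the median of 0.71 and 0.64 over all genes, so TPM levels here serve to order genes within a group and not to measure a difference between groups. In TPM, Dkk2 also did not overlap between F-PRT and untreated bone.

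**Figure D3:**
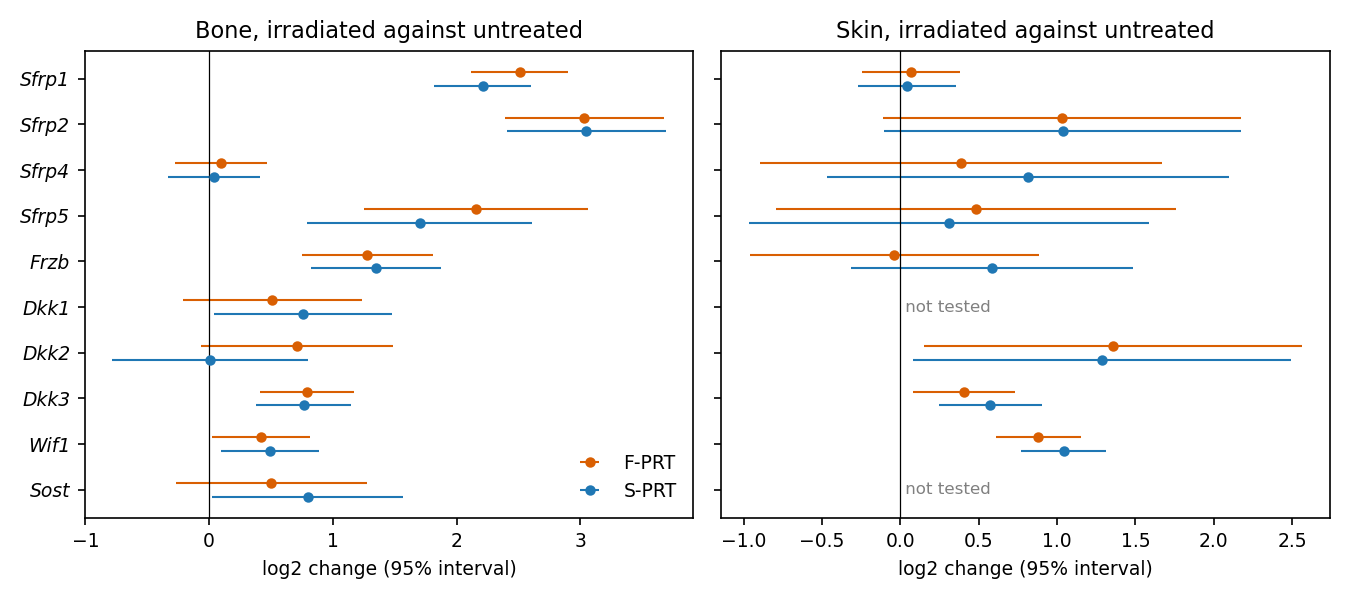
Log2 difference of each member against Untreated in bone (left) and skin (right) with its 95% interval from the edgeR fit, for F-PRT (orange) and S-PRT (blue), which share the untreated libraries of each tissue. In bone Sfrp2 and Sfrp1 lie farthest from 0 and Sfrp4 at 0.09 and 0.04, and in skin Wif1 has the narrowest interval away from 0. The intervals in bone describe the fit and are not read as a test, since the members were chosen on that contrast.

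By likeness of pattern, the genes closest to Sfrp2 over the 12 bone libraries were Abca9 (Pearson r = 0.993), Phldb2 (0.989), Gpc6 (0.989), Rbms3 (0.988) and Mmp2 (0.988), of 11534 genes compared on log2 CPM. The libraries share the split into irradiated and untreated, so a high r needs little more than that split. Dkk3 was most like Agmo (0.985), Thbs2 and Sspn. Sost was most like Mepe (0.977), a matrix protein gene of osteocytes, followed at 0.918 by Galnt6. Wif1 was most like Snorc (0.964), Irx3 and Creb3l1, with Acp5 and Alpl among the first 5. Sfrp4 had no close partner: its highest r was 0.883, with Epha4.

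Between the beams, no difference between members' levels passed the test in bone. Of 10 members, 0 passed edgeR's test, 0 had an unadjusted p under 0.05 and 0 passed in any of 20 alternatives, DESeq2 included, and among all 18848 genes 1 did (0.00531%). The log2 difference of F-PRT against S-PRT was -0.02 for Sfrp2, with a 95% interval of -0.58 to 0.54. It was 0.30 for Sfrp1 (-0.06 to 0.66), 0.46 for Sfrp5 (-0.35 to 1.26) and 0.70 for Dkk2 (-0.06 to 1.46), each with an adjusted p of 1. These intervals leave room for differences in either direction. No member's groups were free of overlap, where 1.81% of genes had all F-PRT libraries above all S-PRT libraries.

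In irradiated skin, Wif1 rose under both beams, and it was the only member of the 8 that could be tested to pass. Sfrp1, the most abundant member in skin, lay close to its untreated level, and Sfrp2, Dkk2 and Dkk3 were higher on average without passing. By edgeR, 1 of 8 members was called under each beam, where 2.39% of 19038 genes were called under F-PRT and 4.34% under S-PRT. The median log2 difference of the 8 members was 0.44 under F-PRT and 0.70 under S-PRT, against -0.02 and 0.0037 for all genes tested. Wif1 and Dkk2 had all 4 F-PRT libraries above all 4 untreated ones, where 8.02% of genes did, and Wif1 and Dkk3 had all 4 S-PRT libraries above them, where 3.81% did. These comparisons share the 4 untreated skin libraries.

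**Figure D4:**
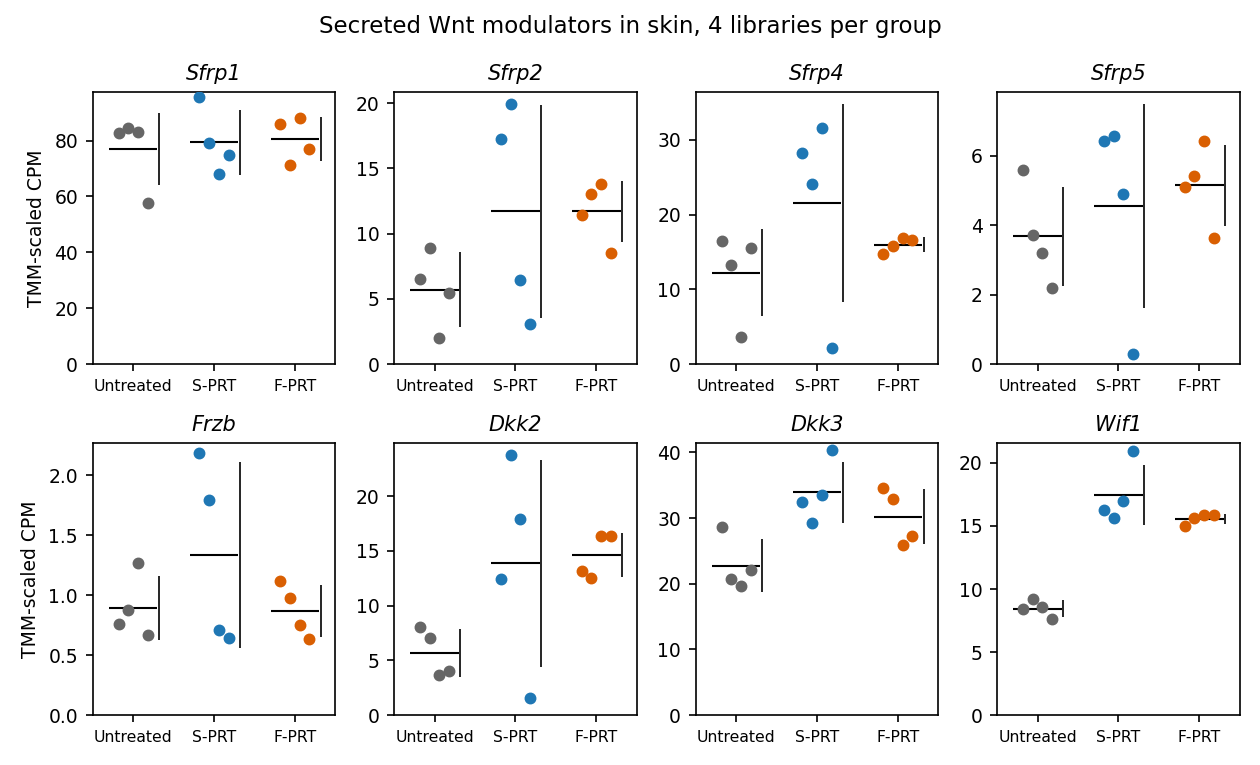
Level of the 8 members measurable in skin (TMM-scaled CPM), with 1 point per library, a horizontal line at the mean of each group of 4 and a vertical line for ±1 SD. Wif1 lies at 7.60 to 9.21 CPM in untreated skin and at 15.0 CPM or above in every irradiated library, and 1 S-PRT library lies near 0 for Sfrp4, Sfrp5 and Dkk2.

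Wif1 was 8.42, 9.21, 8.59 and 7.60 CPM in untreated skin. It was 15.0, 15.6, 15.8 and 15.9 CPM after F-PRT and 16.3, 15.6, 17.0 and 20.9 CPM after S-PRT. All irradiated libraries lay above all untreated ones, and the F-PRT libraries lay within 1 CPM of each other. The mean was 15.6 ± 0.390 CPM after F-PRT, 17.4 ± 2.37 after S-PRT and 8.46 ± 0.660 in untreated skin (SD, n = 4). The log2 change was 0.88 (SE 0.13, edgeR adjusted p = 0.00238) under F-PRT and 1.04 (SE 0.13, adjusted p = 0.000525) under S-PRT, each higher in 4 of 4 libraries. Over 20 alternatives, the adjusted p ran from 8.93e-10 to 0.0158 under F-PRT and from 7.01e-14 to 0.0103 under S-PRT.

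Dkk3 was 28.6, 20.7, 19.7 and 22.1 CPM in untreated skin, 34.6, 33.0, 26.0 and 27.3 CPM after F-PRT and 32.5, 29.3, 33.5 and 40.4 CPM after S-PRT. The S-PRT libraries lay above the untreated ones, and those of F-PRT overlapped them. The log2 difference was 0.41 (adjusted p = 0.227) under F-PRT and 0.57 (adjusted p = 0.0535) under S-PRT by edgeR. The S-PRT difference passed with DESeq2 (adjusted p = 0.0113) and without skin Untreated 1, the highest untreated library (log2 0.70, adjusted p = 0.015).

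Dkk2 was 8.04, 7.07, 3.63 and 4.01 CPM in untreated skin and 13.2, 12.6, 16.3 and 16.3 CPM after F-PRT, with no overlap. After S-PRT it was 12.4, 23.7, 17.9 and 1.52 CPM, and the library that fell below the untreated range was S-PRT 4. The log2 difference was 1.36 (adjusted p = 0.271) under F-PRT and 1.29 (adjusted p = 0.26) under S-PRT by edgeR. Without S-PRT 4 both passed, at 1.36 (adjusted p = 0.0108) and 1.67 (adjusted p = 0.00385). The F-PRT fold did not move, and its p did, since the 12 skin libraries share 1 estimate of the spread.

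Sfrp2 was 6.52, 8.88, 2.00 and 5.41 CPM in untreated skin, 11.5, 13.1, 13.8 and 8.50 CPM after F-PRT and 17.3, 19.95, 6.46 and 3.10 CPM after S-PRT. The groups overlapped, and the log2 difference was 1.03 (95% interval -0.11 to 2.18, adjusted p = 0.395) under F-PRT and 1.04 (-0.11 to 2.18, adjusted p = 0.355) under S-PRT. Sfrp4 was 16.5, 13.3, 3.69 and 15.5 CPM in untreated skin, 14.7, 15.9, 16.8 and 16.6 CPM after F-PRT and 28.3, 24.1, 31.5 and 2.17 CPM after S-PRT. The other S-PRT libraries were thus above every F-PRT library, and S-PRT 4 was below all. Its log2 difference under S-PRT was 0.81 (adjusted p = 0.539), and without S-PRT 4 it was 1.20 (adjusted p = 0.0439). Sfrp5 followed the same libraries, at 6.43, 6.56, 4.90 and 0.293 CPM after S-PRT, with a log2 difference of 0.31 (adjusted p = 0.85). Frzb was at or below 2.19 CPM in every skin library, with log2 differences of -0.04 (adjusted p = 0.979) and 0.58 (adjusted p = 0.529) under F-PRT and S-PRT.

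Sfrp1 in skin was 82.8, 84.5, 82.9 and 57.6 CPM untreated, 86.0, 71.2, 88.0 and 76.96 CPM after F-PRT and 95.5, 79.0, 67.9 and 75.0 CPM after S-PRT. The groups overlapped, and the log2 difference was 0.07 (95% interval -0.25 to 0.38) under F-PRT and 0.04 (-0.27 to 0.36) under S-PRT. Its difference in irradiated bone was 2.51 and 2.21, and the difference between the tissues was not tested because bone chose the members. By pattern over the 12 skin libraries, the genes most like Sfrp1 were Mybpc1 (r = 0.921), Myh1, Nrap, Mb and Asb5, of 11438 compared. The sum of 11 skeletal muscle genes was lowest in Untreated 4, at 7.54 CPM, where Sfrp1 was lowest, and highest in S-PRT 1, at 14300 CPM, where Sfrp1 was highest. For Dkk3 the closest gene in skin was Rtl10 (r = 0.946) and for Sfrp2 it was B3gnt9 (r = 0.932), while Frzb was below the level at which likeness was computed.

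**Figure D5:**
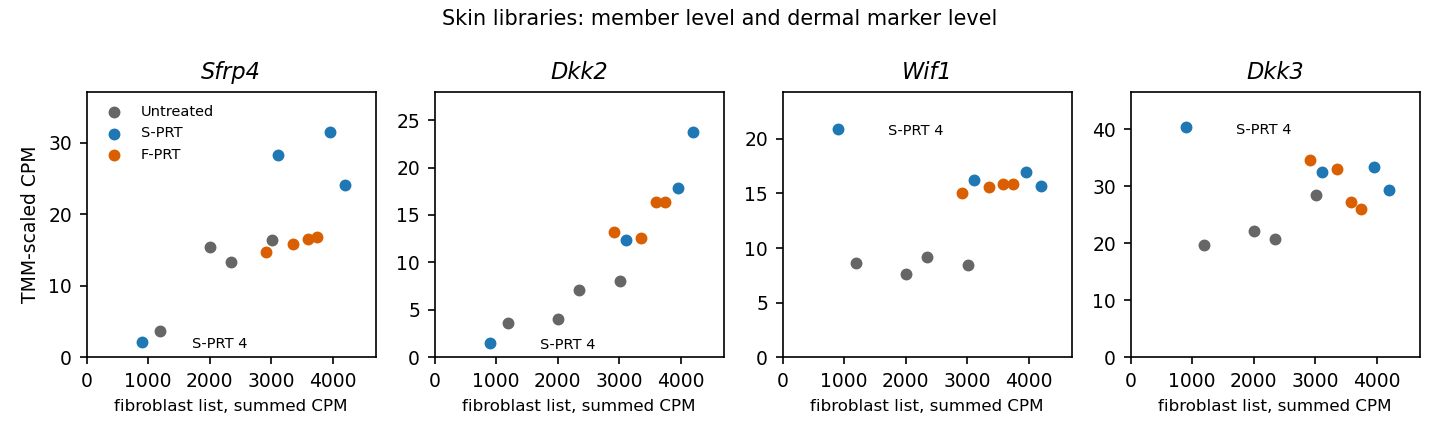
Level of Sfrp4, Dkk2, Wif1 and Dkk3 (TMM-scaled CPM) against the summed CPM of 13 fibroblast and matrix genes in the 12 skin libraries, coloured by group. The library S-PRT 4, at 898 CPM of these genes, is lowest in Sfrp4 and Dkk2 and highest in Wif1 and Dkk3.

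The libraries lowest in Sfrp4 and Dkk2 were also those lowest in dermal markers. Untreated 3 and S-PRT 4, at 1190 and 898 CPM of the fibroblast and matrix list, had 3.69 and 2.17 CPM of Sfrp4 and 3.63 and 1.52 CPM of Dkk2. By contrast S-PRT 4 had the highest Wif1 and Dkk3 of all skin libraries, at 20.9 and 40.4 CPM, together with the highest sum of 11 keratinocyte genes, at 36700 CPM. By group, the fibroblast list summed to 1190 to 3010 CPM in untreated skin, 2920 to 3750 CPM after F-PRT and 898 to 4200 CPM after S-PRT (median log2 difference 0.71 and 0.57). For the 10 endothelial genes the sums were 63.9 to 172, 201 to 230 and 8.20 to 222 CPM (median log2 difference 0.78 and 0.40). No gene of either list passed. Macrophage genes (sums of 200 to 675, 700 to 1070 and 165 to 1030 CPM; median log2 difference 0.85 and 0.71) and dermal papilla genes (133 to 192, 193 to 220 and 69.9 to 225 CPM; 0.70 in each) lay on the same side, also with no gene passing. Neutrophil genes were low, at 20 to 75.3 CPM in untreated skin, 8.99 to 15.1 CPM after F-PRT and 4.92 to 9.6 CPM after S-PRT, and of 4 tested 2 fell under F-PRT and 3 under S-PRT (median log2 difference -1.87 and -2.06). Hair follicle genes had a median difference of -0.15 under F-PRT and 3.68 under S-PRT, where 1 of 10 rose and S-PRT 1 was highest, and skeletal muscle genes 0.06 and 1.63 with none of 11 passing. Of the lists in this paragraph, the neutrophil list alone held genes at 0 over a skin group (Ltf in untreated skin, Mpo after F-PRT, Elane and Ngp after S-PRT). The part of all these markers in the skin results was not tested. For Wif1, the log2 change without S-PRT 4 was 0.88 under F-PRT and 0.96 under S-PRT.

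Between the beams in skin, 0 of 8 members passed edgeR's test and 0 had an unadjusted p under 0.05, where 0% of 19038 genes were called, and 0 members passed in 20 alternatives. The log2 difference of F-PRT against S-PRT was -0.16 for Wif1 (95% interval -0.43 to 0.10) and -0.17 for Dkk3 (-0.49 to 0.16). It was -0.0022 for Sfrp2, with a wide interval of -1.12 to 1.11, and -0.43 for Sfrp4 (-1.70 to 0.84). No member was free of overlap between the beams, where 1.37% of genes had all F-PRT libraries above all S-PRT libraries.

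The other genes of the pathway, which are no members, were tested in both tissues. In bone, Frizzled receptors and co-receptors were the list with the most genes called. Of 18 tested, 13 (72.2%) rose under each beam and the other 5 did not pass, against 15.5% and 13.3% of all genes rising, and the median log2 difference of the 18 was 0.66 and 0.61. Such a share was not particular to this list. Under F-PRT, 88.9% of osteoclast, 83.3% of marrow stroma, 77.8% of macrophage and 70% of adipocyte genes rose. Lower shares were 50% of endothelial and 30.8% of osteoblast genes, and 0% of neutrophil genes rose. Fzd1, a Wnt receptor, was 39.9, 42.5, 40.2 and 44.5 CPM after F-PRT, 39.4, 41.3, 33.7 and 37.5 CPM after S-PRT and 16.5, 14.6, 17.3 and 19.3 CPM in untreated bone. The groups did not overlap, with a log2 rise of 1.30 under F-PRT (adjusted p = 1.29e-06) and of 1.16 under S-PRT (adjusted p = 3.56e-06). Ptk7, a co-receptor of the planar polarity branch, rose by 1.35 and 1.33, and Fzd5 by 0.93 and 0.96. Fzd4 rose by 1.10 and 0.99, and Ror1, a receptor for Wnt5a, by 1.27 and 1.62, under F-PRT and S-PRT.

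Rspo2 and Rspo3 rose in bone. They encode R-spondins, which enhance Wnt signalling by holding back the ubiquitin ligases that remove Frizzled. Rspo3 was 22.9, 32.9, 21.0 and 22.5 CPM after F-PRT, 17.4, 21.8, 19.4 and 25.0 CPM after S-PRT and 6.51, 5.64, 6.67 and 5.23 CPM in untreated bone. The irradiated libraries all lay above the untreated ones, and the gene rose by 2.05 on the log2 scale under F-PRT (edgeR adjusted p = 2.06e-06) and by 1.80 under S-PRT (6.42e-06). Rspo2 rose by 1.49 and 1.38 and the ligase gene Znrf3 by 0.39 and 0.40. Lgr5, an R-spondin receptor, fell, from 5.09 to 9.38 CPM in untreated bone to 1.12 to 1.83 CPM after F-PRT and 1.20 to 2.09 CPM after S-PRT. Of 8 genes of this list tested, 3 (37.5%) rose and 1 fell under each beam. Rspo4 differed by 0.85 (adjusted p = 0.301) and 1.08 (adjusted p = 0.198) without passing.

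Genes known as targets of beta-catenin did not move as a block in bone. Of 12 tested, 7 (58.3%) rose and 1 fell under F-PRT, and 6 (50%) rose and 2 fell under S-PRT, with a median log2 difference of 0.50 in each. Ccnd1, which encodes cyclin D1, rose by 1.65 and 1.52, Tcf7 by 0.90 and 0.78, Tnfrsf19 by 0.55 and 0.59, and Nkd1 rose by 1.14 and 1.12. Axin2, a widely used readout of the pathway, was 5.35, 5.37, 9.43 and 6.10 CPM after F-PRT, 8.10, 4.97, 5.37 and 6.76 CPM after S-PRT and 5.10, 3.35, 4.60 and 6.03 CPM in untreated bone. The groups overlapped, and its log2 difference was 0.46 (edgeR adjusted p = 0.162) and 0.40 (adjusted p = 0.234). Lef1 fell by 0.80 under F-PRT and by 0.72 under S-PRT, and Lef1 is also expressed in precursors of B cells, a lineage in which 5 of 10 marker genes fell under each beam; their part in the value was not tested. Nkd2 rose by 0.47 and 0.41, and Notum, a secreted enzyme that inactivates Wnt proteins, differed by 0.28 (adjusted p = 0.571) and 0.70 (adjusted p = 0.149).

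Of 8 other extracellular antagonists tested in bone, 3 (37.5%) rose and 1 fell under F-PRT, and 4 (50%) rose and 1 fell under S-PRT. Trabd2b, a membrane protease that cleaves Wnt proteins, rose by 1.80 and 1.70 on the log2 scale, and Igfbp4 by 1.43 and 1.20. Apcdd1 differed by 0.53 (adjusted p = 0.0279) and 0.36 (adjusted p = 0.135) and Tpbg by 0.52 (adjusted p = 0.0867) and 0.70 (adjusted p = 0.0279), whereas Draxin fell by 1.55 and 1.45. Apcdd1 and Notum stand in both the target and the antagonist lists. Of 14 cytoplasmic core genes, 5 (35.7%) rose and 1 fell under each beam: Porcn, which is needed for Wnt secretion, rose by 1.36 and 1.44, Tcf7l2 by 0.59 and 0.68 and Tcf7l1 by 0.85 and 0.81, and Btrc fell by 0.91 and 0.72. Of 11 ligand genes tested, 2 (18.2%) rose under each beam, close to the 15.5% and 13.3% of all genes that rose, Wnt5a by 0.94 and 0.76 and Wnt11 by 1.20 and 0.84. The falls in neutrophil and erythroid genes given above moved with all of these changes too.

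In skin few genes of the pathway were called. Ccnd1 rose under both beams, by 1.15 (edgeR adjusted p = 0.0211) under F-PRT and 1.74 (adjusted p = 0.00123) under S-PRT, and Lgr6, a stem cell receptor for R-spondins, fell by 0.71 (adjusted p = 0.0318) and 0.66 (adjusted p = 0.0322). Lgr6 was 116, 98.6, 111 and 82.0 CPM in untreated skin, 68.3, 56.6, 53.2 and 71.3 CPM after F-PRT and 64.7, 61.6, 52.1 and 79.9 CPM after S-PRT, with no overlap. Under S-PRT, Wnt7a (2.86, adjusted p = 0.0243), Wnt9a (1.06, adjusted p = 0.0339) and Rspo3 (1.10, adjusted p = 0.0369) rose as well. Wnt7a was highest in S-PRT 4, at 4.57 CPM against 0.769 to 1.36 CPM in the other S-PRT libraries. Axin2 differed by 0.06 (adjusted p = 0.916) and 0.34 (adjusted p = 0.337), Lef1 by 0.42 and 0.88 (adjusted p = 0.57 and 0.147), Nkd2 by 0.55 and 0.62 (adjusted p = 0.392 and 0.277) and Notum by -0.06 and -0.44 (adjusted p = 0.963 and 0.587). In all, 2 of the 77 genes tested from the 6 lists passed under F-PRT (2.6%) and 5 under S-PRT (6.49%), beside 2.39% and 4.34% of all genes.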

How the data were processed

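PolyA RNA of 12 skin and 12 bone libraries was sequenced. The authors used FastQC, cutadapt, STAR and RSEM with GRCm38, per the submitters' processing notes; versions, parameters and strandedness were not given there. The deposited files hold RSEM's expected counts, TPM and FPKM per gene, made by the authors per the file headers; FPKM values were not analysed. Gene names came from GENCODE M21 (55230 of 55471 IDs matched).

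Expected counts were rounded, filtered with filterByExpr, scaled by TMM and fitted with edgeR 4.0.16 (quasi-likelihood; Benjamini-Hochberg adjustment over all genes tested; threshold 0.05). The 12 libraries of a tissue, or all 24 for skin against bone, shared 1 estimate of the spread. Alternatives were DESeq2 1.42.0, RLE factors, other filters, the replicate number as a block, the 8 compared libraries alone, omitted libraries and, added after seeing the data, total-count scaling. Replicates differed by more than sampling noise. Depth was 10.9 M to 22.1 M counts (M, 1000000), and intervals of pooled counts cover counting error only.

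Members and lists were chosen with earlier results of these data known. All members were named; of each Wnt list, up to 4 genes of smallest adjusted p per comparison, plus Axin2, Lef1, Nkd2 and Notum. Likeness used log2 CPM (prior count 2) of genes with a mean of at least 5 CPM.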

Additional observations from a re-analysis of the deposited data

Results flagged for a closer look

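Within groups of 4 libraries, 54 sets of values were examined for a single library far from the others, and 6 were found; chance alone gives about 1 in 20. Sfrp2 in bone was 69.9 CPM in F-PRT 2, above 37.9 to 40.4 CPM in the other F-PRT libraries. Frzb in bone was 4.67 CPM in Untreated 3, below 5.69 to 5.87 CPM. In skin, Sfrp4 was 2.17 CPM in S-PRT 4, below 24.1 to 31.5 CPM, and 3.69 CPM in Untreated 3, below 13.3 to 16.5 CPM. Sfrp5 was 0.293 CPM in S-PRT 4, below 4.90 to 6.56 CPM. Sfrp1 was 57.6 CPM in skin Untreated 4, below 82.8 to 84.5 CPM. S-PRT 4 and Untreated 3 in skin were also lowest in fibroblast and matrix genes, and Untreated 4 in muscle genes; their part in these values was not tested.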

How the results depend on the processing

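The number of members called in skin depended on the processing. Under F-PRT it was 1 as reported, 2 with total-count scaling or with only the 8 compared libraries, 3 without the 5 libraries in doubt (Untreated 1 and S-PRT 4 of skin; Untreated 1, F-PRT 2 and F-PRT 3 of bone), and 1 to 2 when single libraries were left out. Under S-PRT it was 1 as reported, 2 with DESeq2, with a filter of 1 CPM in 4 libraries or with total-count scaling, 5 without the libraries in doubt, and 1 to 3 with single libraries left out (3 without S-PRT 4, 2 without Untreated 1). The genes gained under F-PRT were Dkk2 and Dkk3; those gained under S-PRT were Dkk3, Dkk2, Sfrp4 and Sfrp5. Without the libraries in doubt the adjusted p of Dkk3 was 0.0129 under F-PRT and 0.00647 under S-PRT. The number of all genes called moved as well, so these counts are not particular to the members. Under F-PRT it was 455 of 19038 as reported, 1212 of 18324 with only the 8 compared libraries and 2703 of 19258 without the libraries in doubt. Under S-PRT it was 827 of 19038 as reported, 1489 with DESeq2, 2270 of 19405 without S-PRT 4 and 4509 of 19258 without the libraries in doubt. Beyond the construction of each alternative, the cause was not tested. Between the beams the count of members called stayed at 0 in every alternative, and between untreated tissues it was 7 to 9.

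Directions changed in 46 of 1400 alternative values, all of them log2 differences whose reported 95% interval includes 0. With single libraries left out, Sfrp1 in skin ran from -0.051 to 0.12 under F-PRT and from -0.073 to 0.11 under S-PRT, and Frzb under F-PRT from -0.18 to 0.17. For F-PRT against S-PRT in skin, Sfrp1 ran from -0.047 to 0.12, Sfrp2 from -0.33 to 0.38, Sfrp5 from -0.22 to 0.40 and Dkk2 from -0.31 to 0.46. In bone, Sfrp4 ran from -0.0096 to 0.34 under F-PRT and from -0.064 to 0.30 under S-PRT, and Dkk2 under S-PRT from -0.19 to 0.25. For F-PRT against S-PRT in bone, Sfrp2 ran from -0.28 to 0.23, Sfrp4 from -0.0081 to 0.12, Frzb from -0.21 to 0.17, Dkk1 from -0.43 to 0.041, Dkk3 from -0.0040 to 0.064 and Wif1 from -0.20 to 0.12. Sfrp2 in untreated skin against bone ran from -0.18 to 0.40. With total-count scaling, Frzb in skin under F-PRT was 0.072 and Sfrp2 between the beams in skin 0.032; with only the 8 compared libraries the latter was 1.73e-05. Without the libraries in doubt, the difference between the beams was -0.014 for Sfrp1, -0.22 for Sfrp5 and -0.31 for Dkk2 in skin, and 0.10 for Frzb, -0.065 for Dkk3 and 0.044 for Wif1 in bone.

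Deviations of libraries with the same replicate number from their groups had correlations from -0.34 to 0.37, and in no comparison were all 4 above 0.1. Between the beams in skin all 4 were positive, at 0.372, 0.0675, 0.195 and 0.126. Between the untreated tissues all 4 were negative, at -0.278, -0.291, -0.12 and -0.261, and the other comparisons held both signs. With 4 values per comparison, whether equal numbers mean paired libraries cannot be decided. With the replicate block, Sfrp2 in bone was 3.00 under F-PRT and 3.01 under S-PRT, no count of members called changed, and Sfrp2 turned to 0.29 between the beams in skin and to -0.0045 between untreated tissues. Sfrp2 in irradiated bone was positive in all 20 alternatives per beam. The genes were chosen with this rise known and the alternatives reuse the same libraries, so nothing is read from that. Low counts limit Frzb, Sfrp5 and Dkk2, and Dkk1 and Sost in skin were below what these depths can test.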
